A study of Mus musculus with 32 samples.

Results

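The enzymes described here are the phase II conjugation enzymes of mouse liver, taken as every gene whose platform symbol belongs to the UDP-glucuronosyltransferases (Ugt followed by a digit), the glutathione S-transferases of the classes alpha, kappa, mu, omega, pi and theta (Gsta, Gstk, Gstm, Gsto, Gstp and Gstt), or the sulfotransferases (Sult). They were chosen by name and not by their values. The rule gave 43 of 18194 measured genes: 11 UDP-glucuronosyltransferases, 19 glutathione S-transferases and 13 sulfotransferases. All samples were CD-1 mouse liver hybridised to Affymetrix Mouse Genome 430 2.0 arrays, 2 arrays in each of 16 groups, every array with RNA pooled from at least 3 tissues. The groups were embryonic livers microdissected daily between 10.5 and 14.5 days post conception and again at 16.5 days, livers of 10-week-old females taken early (1, 2 and 6 h), in a middle phase (12, 18, 24 and 30 h) or late (48 and 72 h) after surgical removal of 2/3 of the liver together with the gallbladder, and livers of unoperated 10-week-old females, called time 0. Operated mice received ketamine and xylazine for the operation and buprenorphine afterwards. There was no sham-operated group, so effects of anaesthesia, analgesia and surgery cannot be told apart from those of the loss of liver tissue, and the labels do not give the sex of the embryos.

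Phase II enzymes attach a polar group to a lipophilic molecule so that it can leave the cell in bile or urine. UDP-glucuronosyltransferases of the endoplasmic reticulum transfer a sugar from a UDP-sugar to steroids, bile acids, bilirubin and drugs. Glutathione S-transferases of the cytosol couple glutathione to electrophiles, including products of lipid peroxidation. Cytosolic sulfotransferases move sulfate from its activated carrier PAPS to phenols, catecholamines, thyroid hormones, oestrogens and hydroxysteroids. The hepatocyte is the main site of all 3 reactions in the adult, and some sulfotransferases, among them Sult2a and Sult3a1, are known to be more abundant in female than in male mouse liver.

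Levels below are deposited probe set intensities on a linear scale. Tests used log2(value + 16) with values below 0 set to 0, in 1 limma fit of all 32 arrays, and a gene was called where the Benjamini-Hochberg adjusted p over all 18194 genes was under 0.05. Each gene is read from 1 probe set, so a level is compared across samples and never with that of another gene. Precision is limited by having 2 arrays for each group, and the labels do not say that the pools of a group came from different animals, so the p-values measure the spread between these pools, which may be technical. The second array of 48 h stood apart (log2 of 3′ over 5′ signal 2.42 for Actb, against 0.33 to 1.72 on the other arrays), and over the members it read a median of 0.49 (log2) below the first. For Gapdh the same ratio was highest on the first array of 10.5 days (1.49), then on the second of 48 h (1.22). The other arrays gave -0.44 to 0.32. At time 0 the 2 arrays differed widely for several members of high signal, for instance 1404 and 3578 for Ugt2b5. Of the 6 hepatocyte markers measured, Alb and Ttr read above time 0 at 16.5 days, and Apoa1, Apoa2 and Ahsg below it. Alb read 8695 and 8651 at 16.5 days and 8205 and 7464 at time 0, whereas Afp, the fetal plasma protein, read 6510 and 6574 at 16.5 days and 13.4 and 7.6 at time 0. Ahsg read 3398 and 3352 at 16.5 days and 6347 and 7532 at time 0. The summed level of the hepatocyte markers, Afp included, was 11080 at 10.5 days and 39140 at 16.5 days, against 39360 to 49970 in the operated livers and 39700 at time 0. Summed erythroid markers, 7 genes, ran from 2061 to 21270 in the embryonic livers, against 378 to 629.6 in the operated livers and 433.5 at time 0. Neutrophil and blood progenitor markers, 6 genes, ran from 673.8 to 7607 in the embryonic livers, against 1006 to 2124 in the operated livers and 664.4 at time 0. Stellate and mesenchymal markers, 7 genes, ran from 3862 to 7813 in the embryonic livers, against 1123 to 2093 in the operated livers and 1527 at time 0. Of these, Des, Acta2, Col1a1 and Col3a1 read above time 0 on every embryonic array. Lrat went the other way (17.9 to 47.9 in the embryonic livers, against 87 and 74.9 at time 0). Pdgfrb overlapped time 0 at 16.5 days and Reln at 10.5 days. Markers of neighbouring organs, 8 genes, summed to 510.8 to 654.9 in the embryonic livers, against 1244 to 1852 in the operated livers and 1227 at time 0. Fabp2 was most of the time 0 sum (763 and 722, against 51.1 and 39.7 at 10.5 days). Cdh16 was also lower at 10.5 days. Wt1 went the other way (192 and 200 at 10.5 days, against 7.5 and 10.9 at time 0), as did Sox2 (80.4 and 85.7, against -7.1 and -0.4). The other genes of the list overlapped between time 0 and 10.5 days. The 4 genes of cycling cells summed to 5671 to 9956 in the embryonic livers, against -25.64 to 1674 in the operated livers and 22.19 at time 0. The part of these cells in the results was not tested. Fewer cells of a type and less RNA per cell cannot be told apart in such bulk samples.

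Most phase II genes were far below their adult level in embryonic liver, and few passed the test against time 0 in the phases after hepatectomy. Taking the 6 stages together against time 0, 32 of the 43 members were lowered and 3 raised, against 24.8% of all genes lowered and 30.9% raised. The median difference over the members was -1.71 (log2), against 0.02 over all genes. All 11 UDP-glucuronosyltransferases were lowered, with a median of -4.04 that is the value of Ugt2b37, a gene at or near 0 in the embryo, and so depends on the added constant (-2.3 with 64 and -7.77 with 1). Of the 13 sulfotransferases 9 were lowered and 1 raised, with a median of -1.55, and of the 19 glutathione S-transferases 12 were lowered and 2 raised, with a median of -1.43. In 25 members every embryonic array read under every one of the 20 adult arrays, 9 of them UDP-glucuronosyltransferases. In 1, Gstm5, every embryonic array read above all of them. The same shares over all genes were not computed, so these counts describe the members only. Set against the 48 and 72 h livers in place of time 0, 34 members were lowered (30.8% of all genes) and 3 raised (35.7% of all genes).

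**Figure D1:**
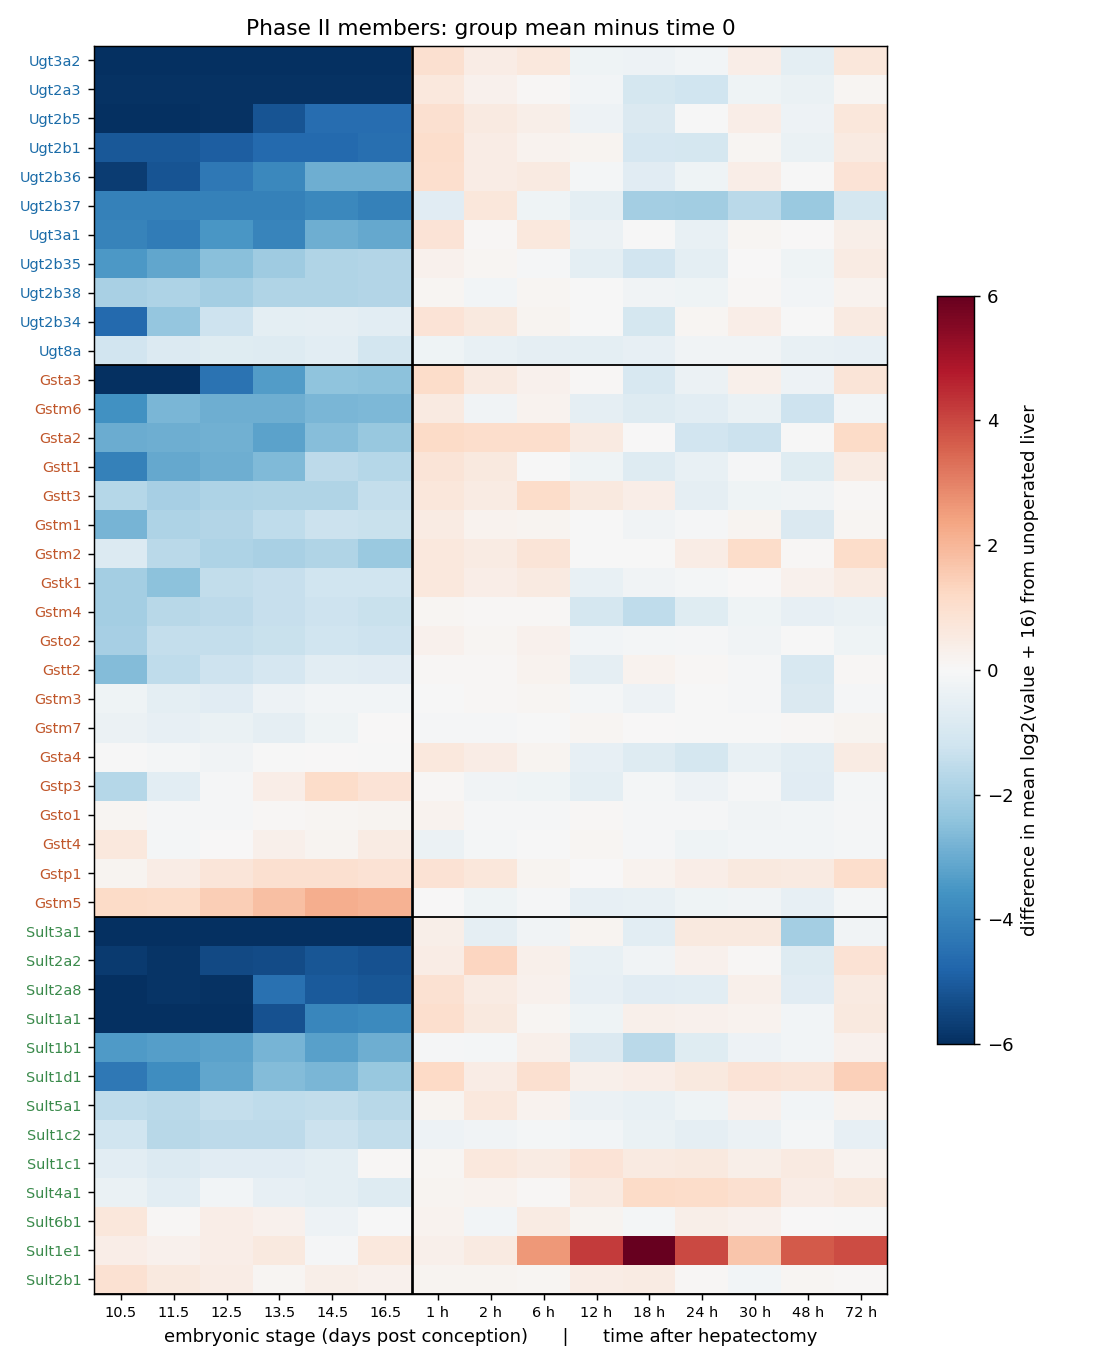
Heat map of the 43 members (lines, grouped as UDP-glucuronosyltransferases, glutathione S-transferases and sulfotransferases, in blue, orange and green type) over the 6 embryonic stages and the 9 times after hepatectomy (columns). Colour gives the group mean of log2(value + 16) minus that of time 0, with the scale ending at -6 and 6. The embryonic columns are blue for most members, Gstm5 is red there, and Sult1e1 is the reddest line after hepatectomy.

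**Figure D2:**
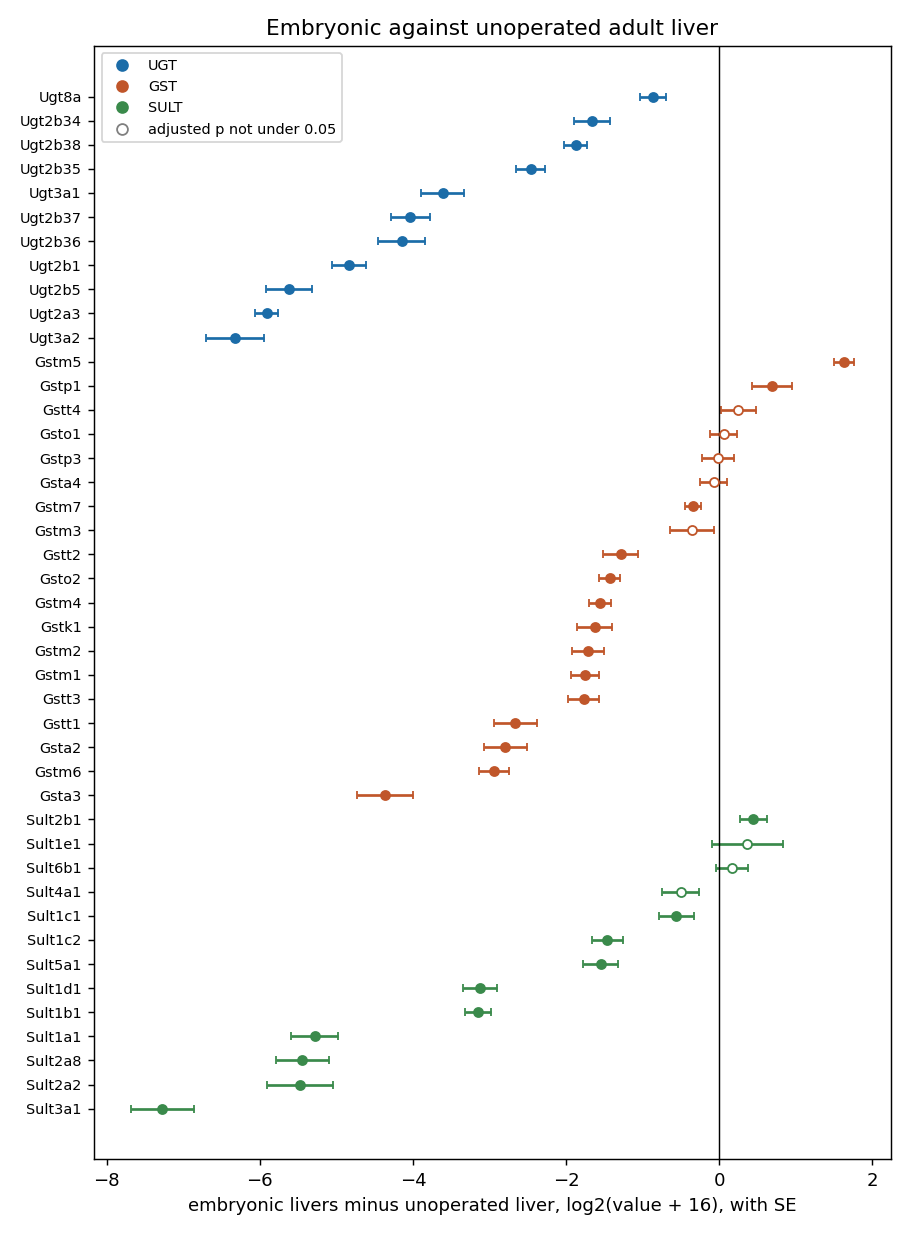
Difference between the mean of the 6 embryonic stages and unoperated liver for each member, in log2(value + 16), with its standard error (bars). Filled points passed an adjusted p of 0.05. All 11 UDP-glucuronosyltransferases lie below 0, and Gstm5 at 1.63 is the highest point.

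After hepatectomy the mean of the early phase brought no call. At 1 to 6 h 0 members were raised and 0 lowered by limma, against 0.726% and 0.253% of all genes. Of the 43 differences 35 were positive, the median was 0.32 against 0 over all genes, and 9 members had an unadjusted p under 0.05. The mean of 19 members was highest at 1 h among the 10 adult times, 7 of them UDP-glucuronosyltransferases. These counts were not set against a share of all genes and describe the members only. At 12 to 30 h 2 members were raised (2.61% of all genes) and 5 lowered (2.18% of all genes), and with quantile normalization 2 were raised and 10 lowered. At 48 to 72 h 2 were raised (2.01% of all genes) and 1 lowered (0.638% of all genes), and with quantile normalization 2 and 3. Between these phases, at 48 to 72 h against 12 to 30 h, 6 members were raised (4.09% of all genes) and 1 lowered (1.58% of all genes). The moderated F test across all 9 times called 19 members, against 18.2% of all genes. With only the arrays of the compared groups in the fit, 2 members were called at 12 to 30 h, 0 by limma at 48 to 72 h, 1 between these phases and 11 over the 9 times. Shares of all genes are not given for quantile normalization or for the fits of only the arrays compared, so those counts describe the members only. Contrasts against time 0 share its 2 arrays.

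The UDP-glucuronosyltransferases of the Ugt2 subfamilies glucuronidate steroids, bile acids and drugs. Ugt2a3 read between -18.4 and -2.84 over the 12 embryonic arrays, against 870 and 1029 at time 0. It was thus not above 0 on any embryonic array, and its difference of -5.91 ± 0.15 (SE, adjusted p = 8.40e-18) is set by the added constant. Ugt3a2, whose human counterpart uses UDP-glucose and UDP-xylose, read between -56.6 and -7.06 in the embryo and 966 and 1652 at time 0, a difference of -6.32 ± 0.38 (adjusted p = 6.57e-12). Ugt2b37 lay between -17.2 and 5.21 in the embryo and read 272 and 235 at time 0, a difference of -4.04 ± 0.26 (adjusted p = 1.62e-11). The sizes for Ugt3a2 and Ugt2b37 likewise depend on the constant, since their embryonic values are at or below 0: with a constant of 64 they were -4.38 and -2.3, and with 1 they were -10.3 and -7.77. These 3 genes stayed near or below 0 through all 6 stages.

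Of the other Ugt2b genes, Ugt2b5, Ugt2b36, Ugt2b34 and Ugt2b35 rose with stage. No detection call was made, and Ugt2b1 and Ugt2b38 stayed under the median of all values (74.6) on every embryonic array. Ugt2b5 read -24.4 and -5.07 at 10.5 days and 94.5 and 66.3 at 16.5 days, against 1404 and 3578 at time 0, and its difference over the stages was -5.62 ± 0.30 (SE, adjusted p = 9.90e-13). That size ran from -6.75 to -4.54 over the 44 other settings tried. Ugt2b36 read 31.2 and 28.9 at 10.5 days and 303 and 291 at 16.5 days, against 1482 and 3723 at time 0, a difference of -4.15 ± 0.30 (adjusted p = 1.63e-10). For both, the highest embryonic array lay under the lowest adult one. Ugt2b1 stayed between 34.7 and 72.0 on all embryonic arrays, against 1445 and 2638 at time 0, a difference of -4.84 ± 0.22 (adjusted p = 9.20e-14). Ugt2b34 stood apart from these: it read 47.3 and 56.6 at 10.5 days, 355 and 304 at 11.5, 892 and 570 at 12.5, 1065 and 1154 at 13.5, 1132 and 1182 at 14.5 and 1060 and 1131 at 16.5 days, against 1255 and 2283 at time 0. At 16.5 days its mean was 61.9% of that of time 0, where Ugt2b36 was at 11.4%, Ugt2b5 at 3.23% and Ugt2b1 at 3.39%. Its difference over all stages was -1.66 ± 0.24 (adjusted p = 4.35e-06), and a second probe set of the gene gave -1.63. Ugt2b35 read 91.0 and 82.3 at 10.5 days and 310 and 318 at 16.5 days, against 1011 and 1174 at time 0, which put it at 28.8% of the adult mean at the last stage. Ugt2b38 was lowered (-1.87 ± 0.15, adjusted p = 8.09e-10), as was Ugt8a (-0.86 ± 0.17, adjusted p = 0.000218), which makes galactosylceramide of myelin and whose second probe set gave -0.06. Ugt3a1, whose human counterpart transfers N-acetylglucosamine, was lowered too (-3.61 ± 0.28, adjusted p = 4.98e-10).

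The Ugt2 genes measured here lie on mouse chromosome 5 in RefSeq (build GRCm38.p6), and 8 of them have a promoter window there. The 80 bases before the annotated start are shown for 6 of them, because these genes gave different profiles in the embryo and after hepatectomy. Capitals mark the nuclear receptor half-site AGGTCA, searched on both strands.
Ugt2b5, chr5:87140341-87140420, minus strand: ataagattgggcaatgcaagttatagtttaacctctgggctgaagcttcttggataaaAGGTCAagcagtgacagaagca
Ugt2b36, chr5:87092556-87092635, minus strand: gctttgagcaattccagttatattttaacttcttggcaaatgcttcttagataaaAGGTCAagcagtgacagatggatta
Ugt2b37, chr5:87254789-87254868, minus strand: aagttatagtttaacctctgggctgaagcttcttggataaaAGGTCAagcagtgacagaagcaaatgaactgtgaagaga
Ugt2b38, chr5:87424204-87424283, minus strand: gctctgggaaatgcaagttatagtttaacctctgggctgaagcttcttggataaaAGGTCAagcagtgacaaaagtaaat
Ugt2b34, chr5:86906938-86907017, minus strand: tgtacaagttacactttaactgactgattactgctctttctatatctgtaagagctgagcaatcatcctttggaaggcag
Ugt2a3, chr5:87337196-87337275, minus strand: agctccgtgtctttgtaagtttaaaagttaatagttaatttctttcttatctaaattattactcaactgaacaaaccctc
The half-site AGGTCA lies 22 to 39 bases before the start in Ugt2b5, Ugt2b36, Ugt2b37 and Ugt2b38, and these letters are not in the stretches shown of Ugt2b34 and Ugt2a3. Among the genes with that match, Ugt2b5 and Ugt2b36 passed the test of the slope per day, with rises. Ugt2b37 and Ugt2b38 did not pass that test. The slopes of these genes were not compared with each other, so a difference between them was not tested. For Ugt2b37 the test can decide little, because nearly all its embryonic values were negative and were set to the same value before the fit. Over windows of 300 bases (250 before and 50 after the start), AGGTCA is in 20.8% of the 48 windows of members and 16.3% of all 32851 windows. Such a match describes the letters only.

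After hepatectomy Ugt2b37 lost most of its signal by 48 h, and at 72 h both arrays read higher but still under time 0. Its 2 arrays read 272 and 235 at time 0, 145.3 and 158.3 after 1 h, 431 and 407 after 2 h, 138 and 311 after 6 h, 121 and 214 after 12 h, 29.0 and 82.0 after 18 h, 52.5 and 43.8 after 24 h, 99.1 and 52.6 after 30 h, 33.6 and 49.4 after 48 h and 129 and 98.0 after 72 h. From 18 h on every array lay under both time 0 arrays, and at 2 h both lay above them. It fell at 12 to 30 h (-1.57 ± 0.26, a 2.97-fold decrease, adjusted p = 0.00116) and at 48 to 72 h (-1.65 ± 0.29, 3.14-fold, adjusted p = 0.00175). Leaving out any 1 array kept both calls, with -1.71 to -1.43 and -1.75 to -1.55. Over all 44 other settings tried, the first call was lost in 1 and the second in 3. Among single times it was called at 18, 24, 30 and 48 h but not at 72 h, and the size was greatest at 48 h (-2.24 ± 0.33, adjusted p = 0.000891). The call at 24 h was lost without the second array of 24 h (-1.97), and that at 30 h in 16 of the 32 fits that left out an array.

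Ugt2a3 dipped and came back. It read 870 and 1029 at time 0, 769 and 914 after 12 h, 499 and 407 after 18 h, 540 and 299 after 24 h, 727 and 860 after 30 h, 722 and 729 after 48 h and 973 and 1089 after 72 h. Both arrays of 18 h and of 24 h lay well under time 0, and those of 72 h overlapped it. It fell at 12 to 30 h (-0.67 ± 0.15, adjusted p = 0.0139) and was higher again at 48 to 72 h than at 12 to 30 h (0.54 ± 0.12, adjusted p = 0.00821). The first call was lost without the first (-0.79) or the second (-0.55) time 0 array, and the other without the second array of 72 h (0.50). With values below 0 kept in place of set to 0, its adult calls were lost (adjusted p = 0.724 at 12 to 30 h). Ugt2b35 was likewise higher at 48 to 72 h than at 12 to 30 h (0.68 ± 0.15, adjusted p = 0.00673), with 1383 and 1679 after 72 h, against 637 and 354 after 18 h, and that call was lost without the second array of 72 h (0.61). At 18 h Ugt2b35, Ugt2b34, Ugt2a3 and Ugt2b1 were all called lower than time 0, with differences between -1.17 and -1.01. Of these 4, the call of Ugt2a3 was kept whichever array was left out. That of Ugt2b34 was lost in 12 such fits (-1.07 to -0.64), that of Ugt2b1 without the second array of time 0 (-0.58) or either array of 18 h (-1.04 and -0.98), and that of Ugt2b35 without the second array of time 0 (-1.06) or of 18 h (-0.76). Ugt2b5 and Ugt2b36 passed no adult contrast against time 0: Ugt2b5 read 1724 and 840 after 18 h and 3192 and 3947 after 72 h, beside 1404 and 3578 at time 0.

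**Figure D3:**
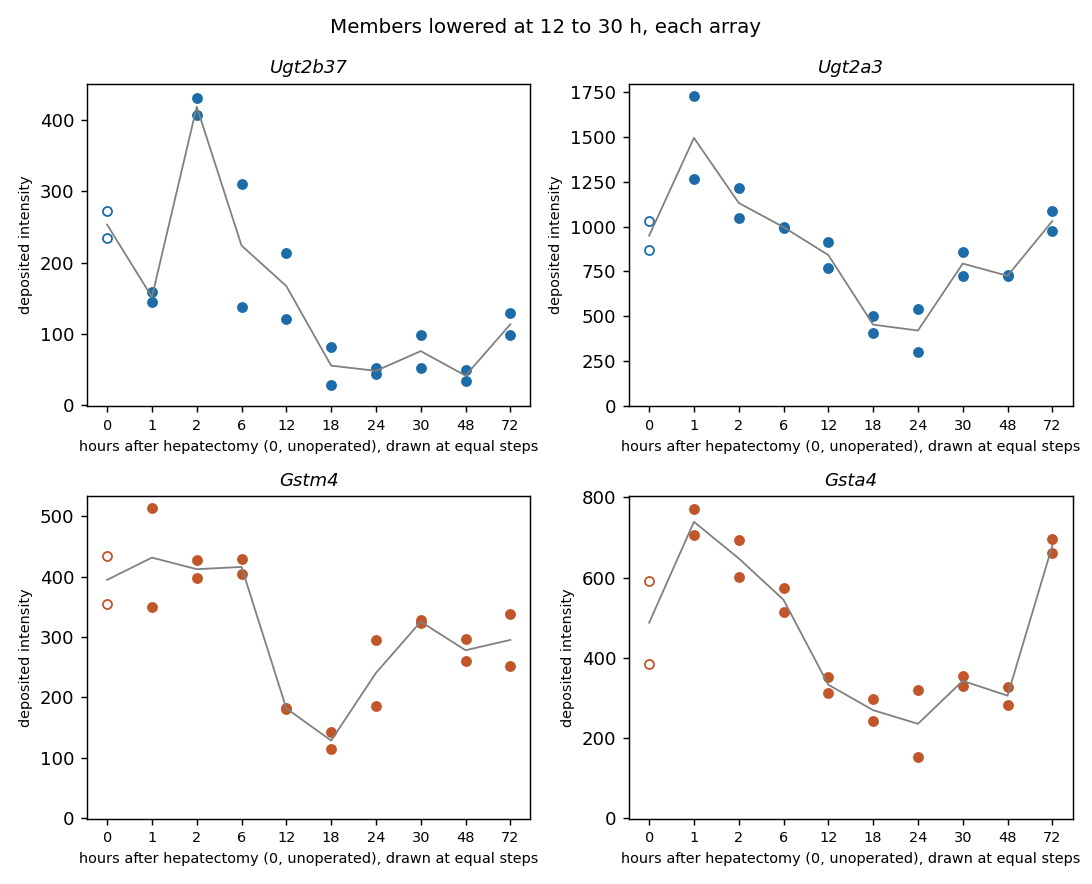
Deposited intensity of Ugt2b37, Ugt2a3, Gstm4 and Gsta4 on each adult array (points) by hours after hepatectomy, unoperated livers as open points at 0 and the group mean as a line. Ugt2b37 stays under both unoperated arrays from 18 h on, while the other 3 are lowest at 18 or 24 h.

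Several sulfotransferases were at or near 0 in the embryo. Sult3a1, an amine sulfotransferase, read between -0.23 and 12.22 on the 12 embryonic arrays, against 2240 and 4597 at time 0, a difference of -7.27 ± 0.42 (SE, adjusted p = 3.02e-12) whose size depends on the added constant (-5.57 with 64 and -9.42 with 1). Sult2a2 and Sult2a8, of the subfamily that sulfates hydroxysteroids and bile acids, were lowered, with differences of -5.47 ± 0.43 (adjusted p = 5.41e-10) and -5.44 ± 0.34 (adjusted p = 1.54e-11). Sult2a2 read 26.6 and 34.7 at 16.5 days, against 1231 and 2344 at time 0, and Sult2a8 read 17.5 and 17.4 at 16.5 days, against 908 and 1501 at time 0. Neither had reached 2% of its adult mean by then, with 1.72% and 1.45%. Sult1a1, the main phenol sulfotransferase, was at 18.36 and 16.01 at 10.5 days and 152 and 129 at 16.5 days, against 1592 and 3020 at time 0 (-5.28 ± 0.31, adjusted p = 4.71e-12), which was 6.10% of the adult mean at the last stage. Sult1b1, which sulfates thyroid hormones, and Sult1d1, a catecholamine sulfotransferase, were lowered, with differences of -3.15 ± 0.17 (adjusted p = 8.78e-13) and -3.13 ± 0.22 (adjusted p = 1.07e-10). Smaller falls were those of Sult5a1 (-1.55), Sult1c2 (-1.46) and Sult1c1 (-0.56), the last of which was lost in 7 of the fits that left out an array, down to -0.32 without the first array of time 0. Sult2b1, which sulfates cholesterol and pregnenolone, went the other way (0.44 ± 0.17, adjusted p = 0.0351), with 1024 and 627 at 10.5 days and 414 and 613 at 16.5 days, against 455 and 377 at time 0. With quantile normalization this was 0.12 and not called, and it was also lost without either array of time 0 (0.57 and 0.31) or 1 of 3 embryonic arrays (0.40 to 0.43).

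Sult1e1, the oestrogen sulfotransferase, read at or near 0 in unoperated and embryonic liver and rose after hepatectomy. Its 2 arrays read -2.25 and 1.19 at time 0, -0.45 and 10.9 after 1 h, 9.88 and 6.25 after 2 h, 91.45 and 80 after 6 h, 212 and 389 after 12 h, 1199 and 893 after 18 h, 82.3 and 656 after 24 h, 24.6 and 54.0 after 30 h, 376 and 102 after 48 h and 223 and 246 after 72 h. All arrays from 6 h on lay above all 12 embryonic arrays, which ran from -5.77 to 14.4. The profile had its peak at 18 h with a mean of 1046 ± 216.5 (SD, n = 2), a trough at 30 h with 39.31 ± 20.75, and a second level of 235 ± 16.1 at 72 h. The 2 arrays of 24 h and of 48 h differed several times over, so the shape between these points is poorly fixed. It rose at 12 to 30 h (3.96 ± 0.48, adjusted p = 4.09e-05) and at 48 to 72 h (3.81 ± 0.53, adjusted p = 0.000221). These sizes depend on the added constant, since time 0 is at 0: with a constant of 64 they were 2.38 and 2.14, and with 1 they were 7.26 and 7.19. Both calls were kept whichever array was left out, with 3.61 to 4.30 and 3.38 to 4.24. It was also called at 6, 12, 18, 24, 48 and 72 h, and the call at 6 h was lost without any 1 of the 4 arrays it compares (2.53 to 2.70) and that at 24 h without the second array of 24 h (2.57). In the embryo it was not called against time 0 (0.37 ± 0.47), and against 48 to 72 h it was lower (-3.44 ± 0.35, adjusted p = 2.01e-08).

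Sult1b1, Sult1d1 and Sult1e1 also lie on chromosome 5 in RefSeq, near the Ugt2 genes. The 250 bases before the start of Sult1e1 and Sult1d1 are given because the first had no signal at time 0 and the second had. Capitals mark AGGTCA (read on the reverse strand in Sult1e1, where it starts 113 bases before the start) and the aryl hydrocarbon receptor core GCGTG (read on the reverse strand in Sult1d1), with no overlap between them.
Sult1e1, chr5:87591612-87591861, minus strand: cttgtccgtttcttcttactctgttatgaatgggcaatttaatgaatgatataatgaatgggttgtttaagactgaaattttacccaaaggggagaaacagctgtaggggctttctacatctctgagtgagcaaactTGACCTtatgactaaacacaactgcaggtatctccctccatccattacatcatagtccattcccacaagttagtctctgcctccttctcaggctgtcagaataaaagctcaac
Sult1d1, chr5:87569007-87569256, minus strand: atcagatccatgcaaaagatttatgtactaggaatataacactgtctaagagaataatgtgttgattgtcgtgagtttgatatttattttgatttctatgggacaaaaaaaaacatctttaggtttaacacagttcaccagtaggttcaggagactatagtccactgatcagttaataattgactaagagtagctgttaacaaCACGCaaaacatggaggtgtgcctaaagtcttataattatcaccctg
GCGTG is in 22.9% of the members' windows and 32.4% of all windows. Sult1d1 read 537 and 647 at time 0, 1312 and 1413 after 1 h, 862 and 1285 after 30 h, 1419 and 696 after 48 h and 1601 and 1666 after 72 h. All 18 arrays after hepatectomy lay above both arrays of time 0. The high level at 1 h was not called (1.19 ± 0.29, adjusted p = 0.0877). It was called at 48 to 72 h (1.09 ± 0.25, a 2.13-fold increase, adjusted p = 0.0182) and at 72 h alone (1.44 ± 0.29, adjusted p = 0.00559), and a second probe set gave 0.79 at 48 to 72 h. The call at 48 to 72 h was lost without either array of time 0 (0.96 and 1.22) or the second array of 72 h (1.08), and the one at 72 h without the first time 0 array (1.31) or the second 72 h array (1.42). Sult1b1 ran the opposite way in the middle phase, with 226 and 179 at time 0, 83.0 and 123 after 12 h, 68.0 and 45.2 after 18 h, 131 and 98.1 after 24 h, 160 and 163 after 30 h and 255 and 226 after 72 h. All 8 arrays of 12 to 30 h lay below time 0. It fell at 12 to 30 h (-0.88 ± 0.17, a 1.84-fold decrease, adjusted p = 0.00392; leaving out the first time 0 array gave -0.73 and no call), and was higher at 48 to 72 h than at 12 to 30 h (0.91 ± 0.13, adjusted p = 0.00014).

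**Figure D4:**
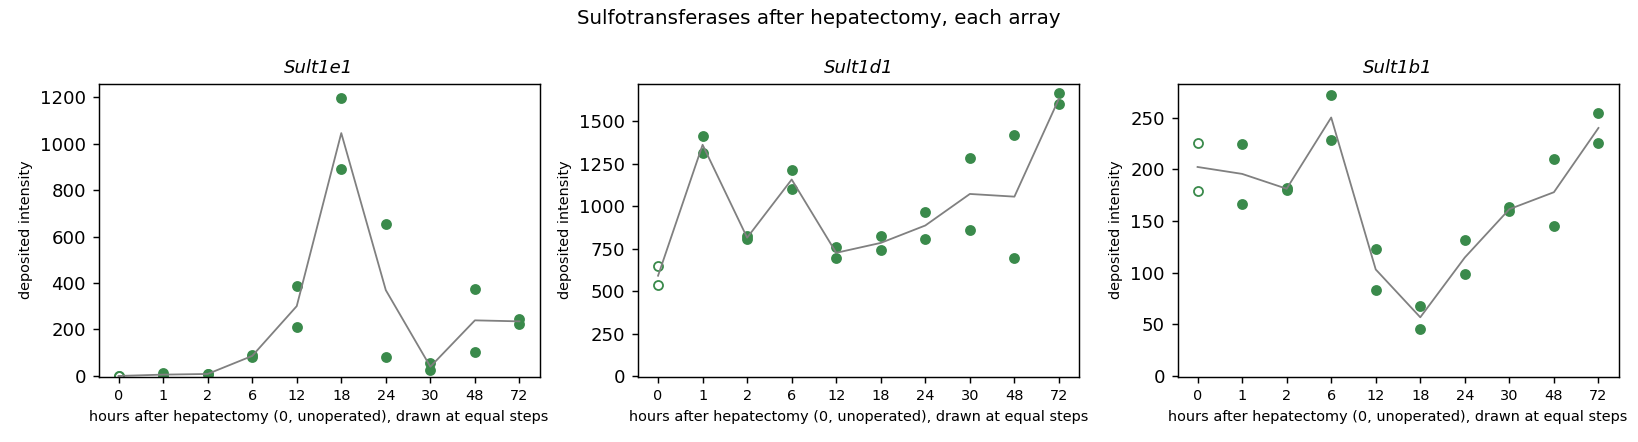
Deposited intensity of Sult1e1, Sult1d1 and Sult1b1 on each adult array (points) by hours after hepatectomy, unoperated livers as open points at 0 and the group mean as a line. Sult1e1 is near 0 up to 2 h and peaks at 18 h, Sult1d1 is above the unoperated arrays at every later time, and Sult1b1 is lowest at 18 h.

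Sult3a1 was lower at 48 to 72 h than at 12 to 30 h (-1.31 ± 0.33, adjusted p = 0.0211). It read 3327 and 4005 after 12 h, 4750 and 864 after 18 h, 5249 and 4498 after 24 h and 4264 and 5391 after 30 h, and then 1012 and 572 after 48 h and 2221 and 3417 after 72 h. The 48 h arrays held the low values, and the call was lost without the second of them (-1.11) or the first array of 72 h (-1.16). Sult4a1, known as a brain sulfotransferase, was called at 12 to 30 h (0.94 ± 0.25, adjusted p = 0.0304) at low signal, with 104 and 90.8 after 18 h and 37.9 and 31.0 at time 0. Its second probe set gave -0.07, and the call was lost without either array of time 0 (1.04 and 0.84) or 1 of 3 operated arrays (0.89 to 0.93). Sult1a1, Sult2a2 and Sult2a8 passed no adult contrast. Sult1a1 read 2883 and 2628 after 18 h and 2732 and 4085 after 72 h, beside 1592 and 3020 at time 0.

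The glutathione S-transferases were the mixed family in the embryo. The alpha class enzyme Gsta3, which in mouse detoxifies aflatoxin epoxide, had the largest fall of the family. It read 14.1 and -2.06 at 10.5 days, 145.1 and 71.05 at 12.5 days and 451 and 423 at 16.5 days, against 1761 and 3561 at time 0 (-4.37 ± 0.36, SE, adjusted p = 1.34e-09). Its second probe set gave -4.28. Gsta2 was lowered (-2.79 ± 0.28, adjusted p = 2.46e-08), with -0.70 to 27.6 on the embryonic arrays and 194 and 132 at time 0. In the mu class Gstm6 (-2.94), Gstm1 (-1.76), Gstm2 (-1.71) and Gstm4 (-1.55) were lowered. The theta enzymes Gstt1 (-2.66), Gstt3 (-1.77) and Gstt2 (-1.29), the mitochondrial and peroxisomal Gstk1 (-1.62) and the omega enzyme Gsto2 (-1.43) were lowered too. Gstm7 was lowered by little (-0.34 ± 0.10, adjusted p = 0.00804; leaving out the second time 0 array gave -0.30 and no call), and its second probe set gave -1.34.

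Other members of the family were not called in the embryo, or only barely. Gsta4, which conjugates 4-hydroxynonenal from lipid peroxidation, read 353 to 512 on the 12 embryonic arrays, against 591 and 384 at time 0 (-0.07 ± 0.18). Gsto1, a dehydroascorbate reductase, read 919 to 1457 in the embryo, against 843 and 1377 at time 0 (0.06 ± 0.18). Gstt4 and Gstm3 were not called either (0.25 ± 0.23 and -0.36 ± 0.29), although a second probe set of Gstm3 gave -3.17, so the probe sets of that gene disagree. Gstp1, the pi class enzyme, read 2931 to 5706 in the embryo, against 1887 and 4140 at time 0 (0.69 ± 0.26, adjusted p = 0.0291). That call rests on the first array of time 0, for without it the difference was 0.13, and with quantile normalization it turned to -0.11.

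Gstm5 was the member that was higher in the embryo on every array. It read 797 and 621 at 10.5 days, 644 and 707 at 11.5, 1001 and 807 at 12.5, 1171 and 1081 at 13.5, 1460 and 1413 at 14.5 and 1370 and 1367 at 16.5 days, against 340 and 280 at time 0. The 18 arrays after hepatectomy ran from 189 to 332. The difference was 1.63 ± 0.13 (SE), a 3.10-fold increase (adjusted p = 5.85e-10), and 1.93 ± 0.10 against 48 to 72 h (adjusted p = 2.14e-13), with 1.5 to 1.77 for the first when any 1 array was left out. Gstm5 lies on chromosome 3 near the other 6 Gstm genes, of which Gstm1, Gstm2, Gstm4 and Gstm6 were lowered, Gstm7 by little, and Gstm3 was not called. Its 250 bases before the start are shown beside those of Gsta3, the glutathione S-transferase of the largest fall. Capitals mark the antioxidant response element core TGACNNNGC, through which Nrf2 (Nfe2l2) acts, and GCGTG (reverse strand, Gstm5). In Gstm5 the last 5 bases of TGACNNNGC, which starts 42 bases before the start, are also a GCGTG match on the reverse strand.
Gstm5, chr3:107895604-107895853, plus strand: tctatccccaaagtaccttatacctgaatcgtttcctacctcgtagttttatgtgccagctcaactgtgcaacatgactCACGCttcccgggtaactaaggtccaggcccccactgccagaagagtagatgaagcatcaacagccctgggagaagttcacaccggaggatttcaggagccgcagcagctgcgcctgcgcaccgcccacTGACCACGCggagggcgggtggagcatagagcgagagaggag
Gsta3, chr1:21240335-21240584, plus strand: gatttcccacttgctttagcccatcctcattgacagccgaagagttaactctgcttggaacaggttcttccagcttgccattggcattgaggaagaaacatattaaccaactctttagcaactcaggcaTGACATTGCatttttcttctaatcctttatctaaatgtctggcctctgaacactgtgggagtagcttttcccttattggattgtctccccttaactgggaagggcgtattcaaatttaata
TGACNNNGC is in 6.25% of the members' windows and 12.4% of all windows, and both genes hold it. These matches describe the letters only, and their part in the differences of Gstm5 and Gsta3 was not tested.

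After hepatectomy 3 glutathione S-transferases met the test between the middle and the late phase. Gsta4 read 591 and 384 at time 0, 352 and 313 after 12 h, 297 and 242 after 18 h, 319 and 152 after 24 h, 329 and 356 after 30 h, 284 and 328 after 48 h and 662 and 697 after 72 h. All 8 arrays of 12 to 30 h lay below time 0 and both of 72 h above it. It fell at 12 to 30 h (-0.70 ± 0.18, a 1.63-fold decrease, adjusted p = 0.0296) and was higher at 48 to 72 h than in that phase (0.64 ± 0.14, adjusted p = 0.00836; 0.57 and no call, adjusted p = 0.0586, without the second arrays of 48 h and 12 h and the first of 10.5 days). The fall was lost without the first time 0 array (-0.40), the second of 18 h (-0.67) or the first of 30 h (-0.69). Gstm4 read 435 and 355 at time 0, 181 and 182 after 12 h, 142.1 and 114.7 after 18 h, 295 and 186 after 24 h and 323 and 328 after 30 h. It fell at 12 to 30 h (-0.88 ± 0.15, a 1.84-fold decrease, adjusted p = 0.00129; leaving out the first time 0 array gave -0.74 and no call), and the falls at 12 h (-1.05) and 18 h (-1.51 ± 0.19, adjusted p = 3.19e-05) were kept whichever array was left out. Its later difference (0.44 ± 0.12, adjusted p = 0.0276) was lost without any 1 of 5 arrays (0.34 to 0.44).

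Gsta2 had a wide swing without a call against time 0. It read 194 and 132 at time 0, 355 and 386 after 1 h, 301 and 401 after 2 h, 316 and 387 after 6 h, 74.6 and 54.9 after 24 h, 58.3 and 55.7 after 30 h, 80.8 and 293 after 48 h and 370 and 381 after 72 h. The arrays of 24 and 30 h were the low ones and those of 1, 2, 6 and 72 h the high ones. It was higher at 48 to 72 h than at 12 to 30 h (1.02 ± 0.23, adjusted p = 0.00757), and not so called without the second array of 48 h (0.60). Single times brought further calls. Gstt3 was higher at 6 h (932 and 827, against 476 and 341 at time 0; 1.09 ± 0.27, adjusted p = 0.0316), Gstm2 at 72 h (917 and 1270, against 538 and 466 at time 0; 1.08 ± 0.27, adjusted p = 0.0297), and Gstm6 lower at 48 h (111 and 104, against 283 and 262 at time 0; -1.23 ± 0.26, adjusted p = 0.0168). The first was lost without the second array of time 0 (0.86) or either of 6 h (1.01 and 1.18), the second without either array of time 0 (1.18 and 0.98) or the second of 72 h (0.85), and the third without either array of time 0 (-1.17 and -1.28) or the second of 48 h (-1.19).

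Within the embryonic series most members that changed were climbing. The linear change per day was positive and called in 20 members (16.4% of all genes) and negative and called in 3 (11.5% of all genes), and a moderated F test over the 6 stages called 18, against 21.2% of all genes. By family the called rises were 11 of the 19 glutathione S-transferases, 5 of the 11 UDP-glucuronosyltransferases and 4 of the 13 sulfotransferases. The 10 steepest were Gsta3 (0.85 ± 0.07 log2 per day, SE), Ugt2b34 (0.60 ± 0.05), Ugt2b36 (0.50 ± 0.06), Sult1a1 (0.50 ± 0.06), Ugt2b5 (0.45 ± 0.06), Gstp3 (0.43 ± 0.04), Gstt1 (0.39 ± 0.05), Sult1d1 (0.33 ± 0.04), Ugt2b35 (0.30 ± 0.04) and Gstt2 (0.29 ± 0.04), with adjusted p between 1.63e-09 and 1.60e-05, all kept whichever array was left out. The other 10 rose by 0.07 to 0.21 per day. Sizes and order hold for the main setting. Over the 44 other settings the slope ran from 0.56 to 1.23 for Gsta3, 0.21 to 0.95 for Ugt2b5 and 0.28 to 0.74 for Sult1a1. For Sult2a8, not among the 10 steepest, it ran from 0.07 to 0.76. Timing differed between the rising members. Ugt2b34 had most of its climb between 10.5 and 12.5 days, whereas Gsta3 was near 0 up to 11.5 days and Sult1a1 first passed 100 at 14.5 days (126 and 137).

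Gstp3, a pi class enzyme, crossed its adult level within the series. It read 34.5 and 82.2 at 10.5 days, 144.8 and 126 at 11.5, 215 and 205 at 12.5, 308 and 278 at 13.5, 468 and 492 at 14.5 and 422 and 377 at 16.5 days, against 218 and 219 at time 0. The mean of the stages was not called against time 0 (-0.02 ± 0.21), with the arrays up to 12.5 days below time 0 and those from 13.5 days on above it. Gstm2, of the mu class, ran against the others, with 266 and 284 at 10.5 days, 144 and 160 at 11.5 and 102 and 84.4 at 16.5 days, against 538 and 466 at time 0 (-0.19 ± 0.04 per day, adjusted p = 0.000929). Sult2b1 also fell with stage (-0.10 ± 0.03 per day, adjusted p = 0.03), a call lost without any 1 of 4 embryonic arrays (-0.09 to -0.06). The third negative call was Sult6b1, the 1 member whose group means all stayed under the median of all values (74.6), and it is not described further. The hepatocyte, erythroid, and neutrophil and blood progenitor marker sums given above climbed over the same stages, and their part in these slopes was not tested.

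**Figure D5:**
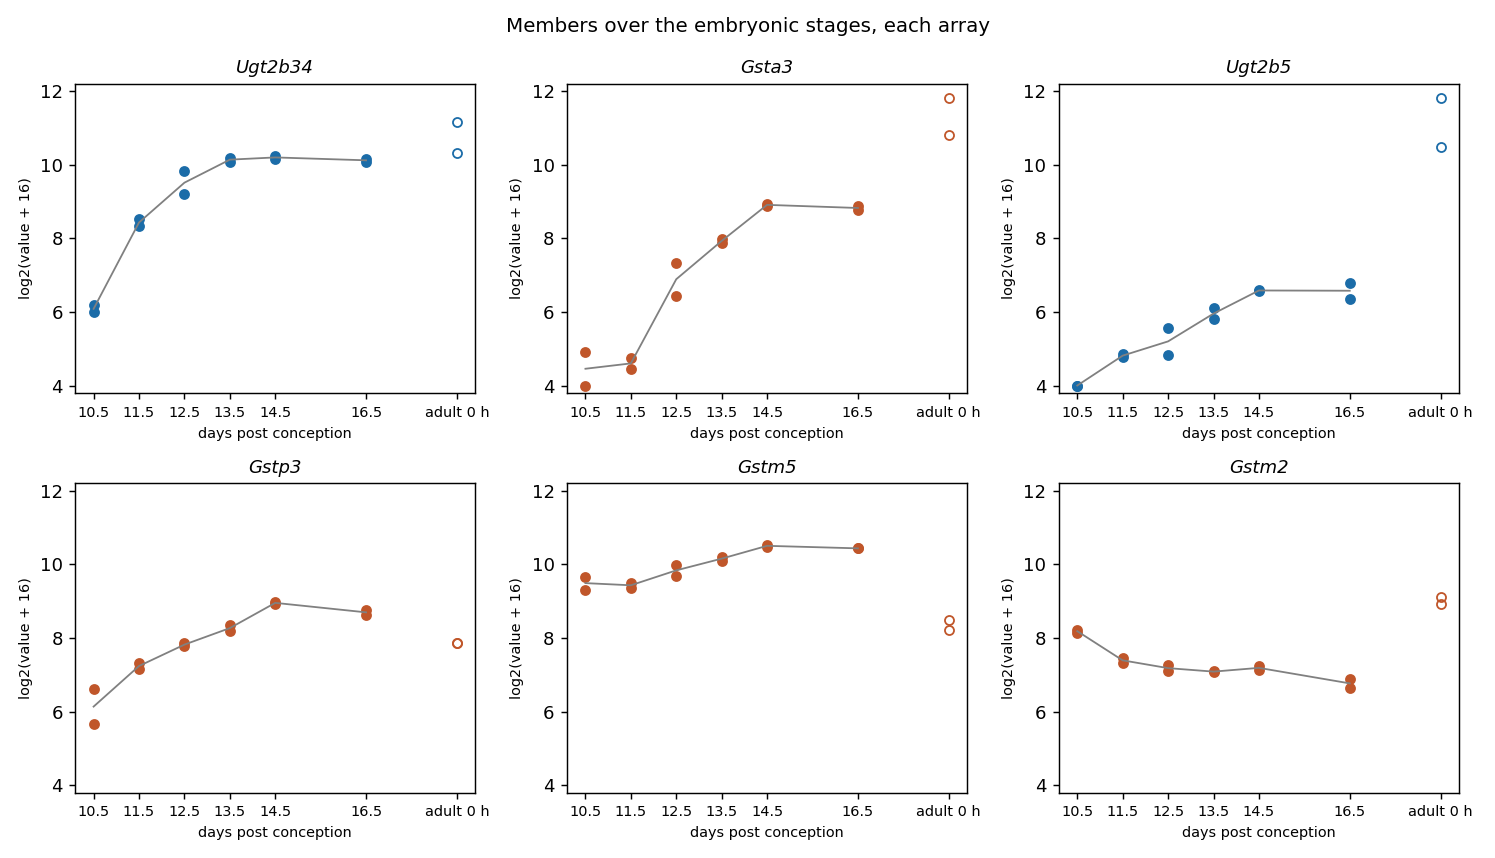
Log2(value + 16) of 6 members on each embryonic array (filled points, mean as a line) by days post conception, with unoperated adult liver as open points at the right. Ugt2b34, Gsta3 and Ugt2b5 climb towards the adult level, Gstp3 passes it, Gstm5 is above it at all stages and Gstm2 descends.

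The genes that serve these enzymes were examined in 5 lists, chosen with earlier results of these data known. Their counts are small and stand beside 24.8% of all genes lowered and 30.9% raised in the embryo. Of 12 genes that supply or recycle the cosubstrates, 7 were lowered in the embryo against time 0 and 0 raised. Papss1 was not called, with means of 442.3 at 10.5 days and 189.5 at 16.5 days, against 190.1 at time 0. Gclm was not called either (1121 at 10.5 days and 1731 at 16.5 days, against 1077 at time 0). The largest fall was that of Papss2, which makes PAPS (60.6 at 10.5 days and 94.6 at 16.5 days, against 784 at time 0; -2.98 ± 0.20, SE, adjusted p = 3.00e-11), followed by Bpnt1, which clears its product (-1.74), Slc35d1, a carrier of UDP-sugars into the endoplasmic reticulum (-1.61), and Gclc, of glutathione synthesis (-1.52). After hepatectomy Gclc was the 1 gene of this list called at 12 to 30 h, where 2.18% of all genes were lowered (-0.87 ± 0.21, adjusted p = 0.0193), with means of 1010 at time 0, 368 after 12 h, 402 after 18 h and 1154 after 72 h. At 48 to 72 h against 12 to 30 h 3 of the list were raised, against 4.09% of all genes: Gclc (0.78), Papss2 (0.66) and Ugdh (0.44), the enzyme that makes UDP-glucuronic acid.

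Of 13 other conjugating enzymes 6 were lowered and 1 raised in the embryo, again against 24.8% and 30.9% of all genes, which holds for the next lists too. The bile acid and glycine conjugating enzymes Baat (-4.78 ± 0.23, adjusted p = 1.85e-13) and Glyat (-4.06) and the methyltransferase Inmt (-5.61) were lowered, and the microsomal glutathione transferase Mgst3 was raised (340 at 10.5 days and 2573 at 16.5 days, against 209 at time 0; 2.66 ± 0.21, adjusted p = 6.46e-10). Nnmt, which methylates nicotinamide, was the 1 gene of this list called after hepatectomy, in all 3 phases, with means of 65.7 at time 0, 1130 after 6 h, 2945 after 18 h, 848 after 30 h and 1963 after 72 h (4.15 ± 0.47 at 12 to 30 h, adjusted p = 1.50e-05). Its highest mean and its dip at 30 h fell at the same times as those of Sult1e1. Of 11 regulators 9 were lowered in the embryo and 1 raised. Nr1i3, the receptor CAR, read 6.87 at 10.5 days and 9.26 at 16.5 days, against 582 at time 0 (-4.52 ± 0.32, adjusted p = 1.05e-10), Esr1 (-3.79) and Nr1h4, the bile acid receptor FXR (-2.04), were lowered too, and the raised one was Nfe2l2 (0.72 ± 0.13, adjusted p = 6.57e-05). In the adult phases 0 regulators were called by limma against time 0, while at 48 to 72 h against 12 to 30 h Esr1 was raised (0.70). Of 4 exporters of conjugates Abcg2 was raised in the embryo (2.00 ± 0.12, adjusted p = 1.13e-11) and Abcc3 (-2.33) and Abcc2 (-1.06) lowered. Abcc4 was lower at 12 to 30 h (-0.89 ± 0.23, adjusted p = 0.0236) and Abcc3 at 48 to 72 h (-1.03 ± 0.23, adjusted p = 0.0162). Of 6 enzymes of hydrolysis and oxidoreduction, the epoxide hydrolases Ephx1 (-3.99) and Ephx2 (-3.09) were lowered in the embryo and Gusb, which splits glucuronides, was raised (1.11 ± 0.14, adjusted p = 6.23e-07). Arsb, a sulfatase of glycosaminoglycans, was the 1 of them raised at 48 to 72 h (0.78 ± 0.19, adjusted p = 0.0318).

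The members Gstm3, Gsto1 and Gstt4 passed none of the contrasts on the probe set read for each. For Gstm3 that probe set gave -0.13 at 12 to 30 h and -0.47 at 48 to 72 h against time 0. Its second probe set gave -1.32 and -1.36. The Gstm and Sult1 genes and the Ugt2b genes have close relatives, and 10 members have more than 1 probe set. Those of Gstm3, Gstm7, Sult4a1 and Ugt8a disagreed as given above, in some contrasts also in direction. Ugt8a gave -0.48 and 0.27 at 48 to 72 h against time 0, and Sult4a1 gave 0.94 and -0.07 at 12 to 30 h. Probe sets of other members differed too at 12 to 30 h: -0.23 and 0.15 for Gsta3, -0.52 to 0 for Gstm1, and -0.14 and -0.5 for Ugt2b34. Another 5 probe sets are listed with several symbols of these families and were not assigned to a gene, which leaves 11 genes, among them the Ugt1a genes and Gsta1, outside the 43.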

How the data were processed

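RNA of 32 liver pools was labelled and hybridised to 1 Affymetrix array each, per the labels' protocols. The deposited values are the authors' processed probe set intensities on a linear scale, with array medians of 69.7 to 79.5 and 2.54% to 4.02% of values below 0. Their software, background correction and normalization were not given in the sources used here. Groups were taken from the source name of each sample, since the age and description fields of some embryonic samples conflict with it. Of 45101 probe sets 34958 are listed with 1 gene symbol, and each of 18194 genes was read from its single-symbol probe set of highest mean over the 32 arrays.

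Values below 0 were set to 0, 16 was added and log2 taken. Group means were fitted over all 32 arrays with limma 3.58.1 (lmFit, eBayes with an intensity trend; R 4.3.3; 16 residual degrees of freedom, prior 4.72), with Benjamini-Hochberg adjustment over all genes within a contrast and calls at 0.05. Phases are means of the 1, 2 and 6 h groups, of the 12, 18, 24 and 30 h groups and of the 48 and 72 h groups. The fit was tested on simulated data. Members called in a phase, the embryonic contrast or the slope per day are named with values, up to the 10 of largest change in each direction. A member whose group means all lie under the median of all values is listed only. Members were taken by symbol and not by value, but the choice of members and lists was made with earlier results of these data known. Alternatives were other added constants, quantile normalization, a filter on low values, other probe set rules, other fits and each array left out in turn. Some genes of the lists are not reported here. Promoter windows are RefSeq's on GRCm38.p6 and matched 38 of the 43 members by symbol.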

Additional observations from a re-analysis of the deposited data

Results flagged for a closer look

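In 7 members the level at 48 to 72 h after hepatectomy differed from that at 12 to 30 h by the limma test of that difference itself. Higher in the later phase were Gsta2 (1.02 log2), Sult1b1 (0.91), Ugt2b35 (0.68), Gsta4 (0.64), Ugt2a3 (0.54) and Gstm4 (0.44), and lower was Sult3a1 (-1.31). The differences of Sult1b1 and Gsta4 kept their call whichever array was left out, but that of Gsta4 lost it without the 3 arrays that stand apart (second of 48 h, first of 10.5 days, second of 12 h; 0.57, adjusted p = 0.0586), with array weights (adjusted p = 0.153) and with only the arrays compared (adjusted p = 0.158). Those of Gsta2, Sult3a1 and Gstm4 lost it without the second array of 48 h (0.60, -1.11 and 0.39), the array with the highest 3′ to 5′ ratio of Actb, and those of Ugt2b35 and Ugt2a3 without the second array of 72 h (0.61 and 0.50). The part of RNA quality in these differences was not tested.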

How the results depend on the processing

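Of 138 named changes of members, 85 kept direction and call under all 44 settings (32 that leave out 1 array and 12 others), and 53 lost the call under at least 1. The embryonic counts were the steadiest: leaving out an array gave 32 to 35 members against time 0 (35 with all arrays), 35 to 38 against 48 to 72 h (37), 18 to 25 for the slope per day (23) and 15 to 19 for the F test over stages (18). Shares of all genes are not given for these settings, so the counts in this section describe the members only. The counts after hepatectomy moved more. At 1 to 6 h (0 members) they were 0 to 2 with an array left out, 2 with a constant of 64, 1 with only the arrays compared, 1 with array weights and 2 without the 3 arrays that stand apart (second of 48 h, first of 10.5 days, second of 12 h). At 12 to 30 h (7) they were 2 to 8 with an array left out, 2 of them without the first array of time 0, 12 with quantile normalization and 2 with only the arrays compared. At 48 to 72 h (3) they were 2 to 4, and 1 with a constant of 1, 5 with quantile normalization, 0 by limma with only the arrays compared and 5 without the 3 arrays. At 48 to 72 h against 12 to 30 h (7) they were 4 to 11, with 11 when either array of 48 h and 4 when the second of 72 h was left out, and 13 with quantile normalization, 1 with only the arrays compared and 2 with array weights. The F test over times (19) gave 16 to 31, the highest without the first array of 48 h, and 11 with only the arrays compared, where fewer arrays estimate the spread. With quantile normalization the embryonic difference of Gstp1 from time 0 turned to -0.11 and that of Sult2b1 from 48 to 72 h to 0. With values below 0 kept, the adult calls of Ugt2a3 were lost (adjusted p = 0.724 at 12 to 30 h). The causes were not tested. With the replicate number as a block the counts were 0, 7, 3 and 7 for the adult contrasts, 35 and 38 for the embryonic ones, 22 for the slope and 19 and 19 for the F tests, and the 1 named call lost was the slope of Sult6b1 (-0.11). The numbers do not pair the arrays: deviations of same-numbered arrays correlated between -0.357 and 0.555 over 120 pairs of groups, with a median of -0.006. With 2 arrays a group, small changes of members near 0 signal cannot be resolved.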

Other observations

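The Ugt1a genes share their exons 3′ of the first and were measured only by probe sets listed with 8 symbols, so no single gene can be read. One of the 3 had means of 46.17 at 10.5 days, 84.34 at 11.5, 277.9 at 12.5, 517.6 at 13.5, 787.3 at 14.5 and 682.2 at 16.5 days, against 3159 at time 0 (arrays 1730 and 4588). After hepatectomy its mean was 5415 after 1 h, 2500 after 48 h and 4373 after 72 h. The spread of the time 0 arrays covers the 48 h mean.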
